A study of Mus musculus and Rattus norvegicus with 2 samples.

Results

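The miR-200 family and miR-375 are microRNAs (miRNAs) best known from epithelial cells, and they were followed here in small RNA of sperm taken from the cauda epididymis, where the epididymal duct ends and mature sperm are held. The 6 miRNAs are miR-375-3p, miR-141-3p, miR-200a-3p, miR-200b-3p, miR-200c-3p and miR-429-3p, out of 276 mature miRNA names found in the mouse and rat libraries together. A sequence was counted for one of them if the authors had assigned it to that name, or if its first 18 nt equalled those of the most abundant mouse sequence of that name, under any label. By this rule 50 of 89179 distinct mouse sequences and 38 of 137388 rat sequences belonged to the 6 miRNAs, both arms included, and all 6 were detected in each species.

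There was 1 library per species, so no difference between mouse and rat has a replicate check. The mouse library came from purified cauda sperm of C57BL/6 animals aged 2 months, and the rat library from purified cauda sperm of young adult Sprague Dawley animals of 450 g. Neither had a treatment or a mutation by its labels, and the sources used here give neither the number of animals pooled nor how the sperm were purified. RNA of 18 to 45 nt was sequenced. The mouse table listed 691381 reads, of which 23507 (3.4%) carried a mature miRNA name, and the rat table listed 2102735 reads, of which 25951 (1.23%) did. All shares are of listed reads, since at least 54.1% of mouse and 13.7% of rat reads belong to sequences not listed, if each identifier stands for 1 sequence. Intervals are exact 95% intervals for counting error only.

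Mature miRNAs are cut from a hairpin precursor and guide Argonaute proteins to target RNAs, mainly by pairing through the seed, bases 2 to 8 from the 5′ end. The miR-200 family holds epithelial cells in their state by repressing Zeb1 and Zeb2, transcription factors of the epithelial to mesenchymal transition. miR-375 is abundant in epithelial and neuroendocrine cells and was first studied in pancreatic islets, where it limits insulin secretion. The epididymal duct is lined by a secretory epithelium that releases RNA-carrying vesicles into the fluid around sperm.

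The mature forms are shown from RefSeq (GRCm38.p6) with the seed in capitals, because the seed splits the 5 family members into 2 groups and sets miR-375 apart. The table held no mature entry for miR-375-3p, so its line was read from the hairpin at the position of the most abundant mouse read.
miR-375-3p: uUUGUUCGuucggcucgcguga
miR-141-3p: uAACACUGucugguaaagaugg
miR-200a-3p: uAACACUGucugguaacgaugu
miR-200b-3p: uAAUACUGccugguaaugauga
miR-200c-3p: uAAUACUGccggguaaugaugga
miR-429-3p: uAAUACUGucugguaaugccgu
miR-141 and miR-200a share the seed AACACUG. miR-200b, miR-200c and miR-429 share AAUACUG. miR-375 has the unrelated seed UUGUUCG.

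In the mouse (GRCm38.p6) these miRNAs come from 3 places, all transcribed from the minus strand. Mir375 lies at chr1:74900658-74900721, overlaps no annotated gene in GENCODE, and has Cfap65 as the nearest coding gene at 1350 nt. Mir200c at chr6:124718322-124718390 and Mir141 at chr6:124717914-124717985 form a cluster within Gm15884, annotated as an antisense gene. Mir200b at chr4:156055681-156055750, Mir200a at chr4:156054896-156054985 and Mir429 at chr4:156053905-156053987 form the second cluster, within the coding gene Ttll10 and the non-coding gene Gm13648. The hairpins of the 2 abundant miRNAs are shown with the bases of the most abundant read in capitals, since the reads discussed below begin and end there.
Mir375 hairpin: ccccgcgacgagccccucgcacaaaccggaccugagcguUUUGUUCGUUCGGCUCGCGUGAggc
Mir141 hairpin: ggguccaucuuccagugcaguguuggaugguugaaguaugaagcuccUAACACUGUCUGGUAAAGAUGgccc
The capitals lie on the 3′ side of each hairpin, and nearly all reads came from that side. With the counts described next included, 662 mouse reads and 339 rat reads of the 6 miRNAs were of the 3p arm. Reads of a 5p arm numbered 2 in the mouse, both of miR-200a-5p, and 1 in the rat, of miR-200b-5p.

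Of the mouse lines, 2535 held a spreadsheet date in place of a count. With the month taken as the count, each had 7 to 12 reads, which placed every such line in the falling order of the table. These lines are left out of the levels, mismatch shares and label shares unless stated, and are included in the counts of read forms, ends and lengths. They held 31 reads of the 6 miRNAs, in 3 sequences.

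The 6 miRNAs together made up 631 mouse reads, or 2.68% of miRNA reads (2.48 to 2.90), and 339 rat reads, or 1.30% (1.17 to 1.45). With the date-stored counts the mouse share was 2.75%. The share was thus higher in the mouse library by more than counting error, with a log2 ratio of mouse over rat of 1.04 (0.85 to 1.23). In such bulk samples, fewer cells of a type and less RNA per cell cannot be told apart.

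miR-375-3p was the most abundant of the 6 in both species. It had 394 reads (356 to 435) in the mouse, or 16761 reads per 1000000 mature miRNA reads (RPM). In the rat it had 198 reads (171 to 228), or 7630 RPM. By deposited name it ranked 7 of 228 mature miRNAs in the mouse, between miR-22-3p and miR-99b-5p, and 17 of 185 in the rat, between miR-146b-5p and miR-30d-5p. Its log2 ratio of mouse over rat was 1.14 (0.89 to 1.39) on the RPM scale.

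miR-141-3p, a partner of miR-200a in seed, followed with 219 mouse reads (191 to 250) and 107 rat reads (87.7 to 129). These were 9316 RPM and 4123 RPM. It ranked 12 in the mouse, between miR-34c-5p and let-7c-5p, and 23 in the rat, between miR-204-5p and let-7a-5p. Its log2 ratio was 1.18 (0.84 to 1.52), so both abundant miRNAs were higher in the mouse by a like factor. The ratio of miR-375-3p to miR-141-3p reads was 1.80 (1.52 to 2.13) in the mouse and 1.85 (1.46 to 2.36) in the rat, and these intervals overlap.

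The other 4 miRNAs were rare. miR-200a-3p had 5 listed reads (1.62 to 11.7) in the mouse and 24 (15.4 to 35.7) in the rat, for a log2 ratio of -2.12 (-3.87 to -0.70). With the date-stored counts the mouse had 16 reads and the log2 ratio was -0.47 (-1.48 to 0.50), an interval that includes 0. Scaled to all listed reads as well, the ratio turned to 0.91, so no direction is given for miR-200a-3p.

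miR-429-3p had 6 mouse and 5 rat reads, miR-200c-3p 4 and 3, and miR-200b-3p 3 and 2. Their log2 ratios of 0.40 (-1.57 to 2.46), 0.55 (-2.01 to 3.33) and 0.72 (-2.40 to 4.31) all had intervals that include 0. The limit taken for a count of 0 was 3 reads, or 128 RPM for the mouse and 116 RPM for the rat, and these 3 miRNAs lie near it. No order among them can be read at this depth.

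**Figure D1:**
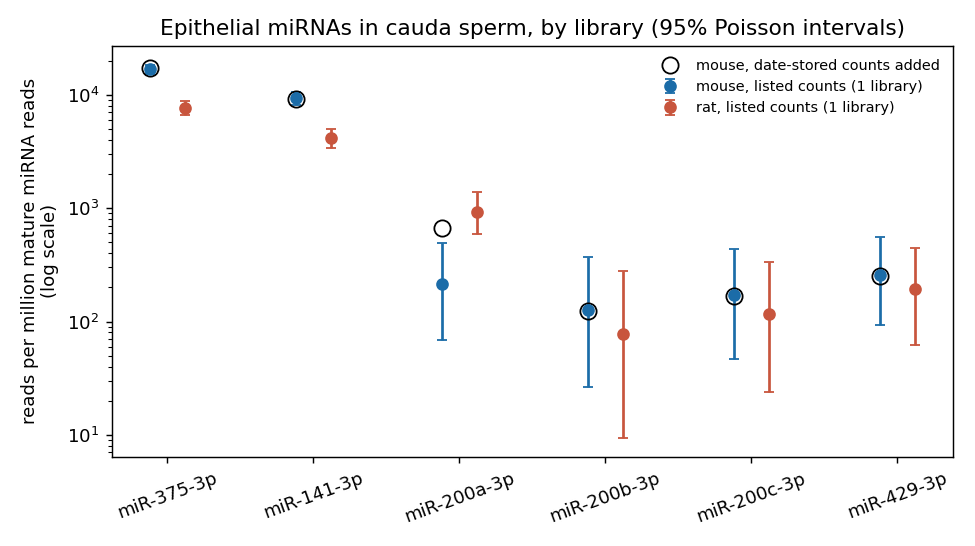
Level of each miRNA in RPM (log axis), in the mouse and rat libraries, with exact 95% Poisson intervals; open circles add the mouse counts stored as dates. miR-375-3p and miR-141-3p stand well above the others in both species, at 16761 and 9316 RPM in the mouse and 7630 and 4123 RPM in the rat, and the open circle moves clearly from the filled point only for miR-200a-3p.

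Within the miR-200 family, 1 seed held nearly all reads. miR-141-3p and miR-200a-3p with the seed AACACUG made up 224 of 237 family reads in the mouse (94.5%, 90.8 to 97.0) and 131 of 141 in the rat (92.9%, 87.3 to 96.5). The seed AAUACUG of miR-200b-3p, miR-200c-3p and miR-429-3p had 13 mouse reads (5.49%) and 10 rat reads (7.09%). The split by seed was therefore alike in both libraries within counting error.

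The split by cluster was less even. The cluster of miR-200c and miR-141 gave 94.1% of listed family reads in the mouse (90.3 to 96.7), or 89.9% with the date-stored counts (85.5 to 93.4), and 78.0% in the rat (70.3 to 84.5). These intervals do not overlap, although the difference rests on the few reads of miR-200a-3p. Members of 1 cluster were far apart in reads. miR-141-3p outnumbered miR-200c-3p, its neighbour on chromosome 6, by 54.8-fold in the mouse (21.1 to 203) and 35.7-fold in the rat (11.9 to 176). In the chromosome 4 cluster, miR-200a-3p outnumbered miR-200b-3p by 12-fold in the rat (2.98 to 105) and miR-429-3p by 4.80-fold (1.80 to 16.1). In the mouse the listed ratios of miR-200a-3p were 1.67 to miR-200b-3p (0.32 to 10.7) and 0.83 to miR-429-3p (0.20 to 3.28), both with intervals that include equality. With the date-stored counts they were 5.33 (1.53 to 28.6) and 2.67 (0.99 to 8.32), so no order within this cluster is given for the mouse.

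Against the miRNA profile as a whole, the direction of the 2 abundant members was the less common one, by a margin that depended on how miRNAs were counted. By deposited name, 83 miRNAs reached 10 reads in the mouse or the rat, and of these 26.5% were at least 2-fold higher in the mouse and 37.3% at least 2-fold higher in the rat, with a median log2 ratio of -0.40. Of the 6 miRNAs, 3 had enough reads to enter this count. miR-375-3p and miR-141-3p were at least 2-fold higher in the mouse, and miR-200a-3p, with its listed count, in the rat. By name miR-200a-3p had 3 listed mouse and 18 rat reads, so it entered only through the rat. With the date-stored counts it had 14 mouse reads by name, and its 2-fold call is not read as a direction. The median of the 3 was 1.21 by name. Since so large a share of miRNAs passed 2-fold in each direction, these 3 counts are not particular to the set.

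How far the 2 miRNAs differed between species depended on what they were scaled to, though the mouse stayed higher under each scaling tried. Scaled to all listed reads, the log2 ratio of the 6 together was 2.49. That total leaves out the unlisted reads, at least 54.1% of mouse and 13.7% of rat reads. By these lower bounds it is cut short more in the mouse, so this ratio is not one per sequenced read. Scaled to mature and precursor reads it was 1.90. miR-34c-5p, a germ line miRNA, held 22.3% of rat mature miRNA reads and 1.08% of those of the mouse. With the male germ line list taken out of the total, a scaling chosen after its values were seen, the ratio was 0.63.

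**Figure D2:**
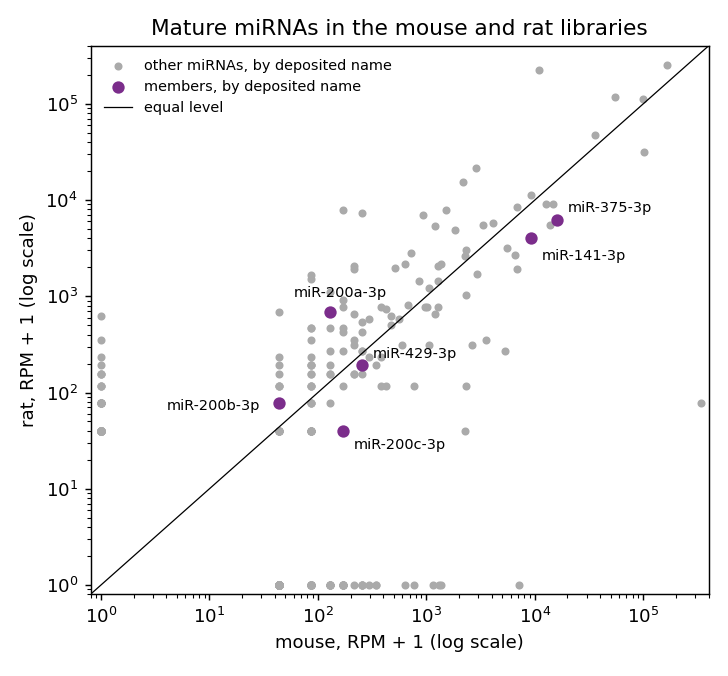
Each point is a mature miRNA by deposited name, with its mouse level on the x axis and its rat level on the y axis, in RPM plus 1 (log axes); the line marks equal levels. miR-375-3p and miR-141-3p lie below the line, on the mouse side, among other abundant miRNAs, while the rare miR-200b-3p, miR-200c-3p and miR-429-3p rest on 1 to 6 reads.

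The miRNAs nearest in level to miR-375-3p over both libraries, by distance in log2 RPM among 45 miRNAs with at least 10 reads in each, were miR-127-3p (327 mouse and 142 rat reads), miR-99b-5p (343 and 236) and miR-30a-5p (300 and 238). Nearest to miR-141-3p were miR-127-3p, miR-182-5p (153 and 69 reads) and let-7a-5p (129 and 82). The distances were 0.29, 0.55 and 0.64 for miR-375-3p and 0.74, 0.78 and 0.83 for miR-141-3p. With only 2 libraries this likeness describes levels and nothing further.

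Most reads of these miRNAs had a sequence found in both libraries, in part because of how they were counted. The mouse had 48 distinct 3p sequences and the rat 37. The 26 shared between them held 633 of 662 mouse reads (95.6%) and 322 of 339 rat reads (95%). The counting rule admitted rat reads whose first 18 nt equalled those of the most abundant mouse sequence. Of the 339 rat reads, 324 had this start, so the sharing is no independent measure of likeness over those bases. The main forms follow, written as DNA as deposited, with bases that differ from the mouse hairpin at the 3′ end in capitals.
miR-375-3p, reference end: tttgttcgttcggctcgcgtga
miR-375-3p, last base G: tttgttcgttcggctcgcgtgG
miR-375-3p, last base T: tttgttcgttcggctcgcgtgT
miR-375-3p, added A: tttgttcgttcggctcgcgtgaA
miR-375-3p, added T: tttgttcgttcggctcgcgtgaT
miR-375-3p, short: tttgttcgttcggctcgc
miR-141-3p, main form: taacactgtctggtaaagatg
miR-141-3p, short: taacactgtctggtaaag
miR-200a-3p, main form: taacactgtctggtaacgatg
The positions of mismatches found against the mouse hairpin were the same as the deposited ones for all 63 sequences compared, rat sequences included.

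The 5′ end, which sets the seed, was nearly uniform. Of miR-375-3p reads placed by bases 4 to 18, 410 of 411 in the mouse (99.8%) and 190 of 194 in the rat (97.9%) began at the same base. The 4 other rat reads began 1 nt earlier. For miR-141-3p, 216 of 218 mouse reads (99.1%) and 105 of 105 rat reads began at the annotated base. Over all mature miRNAs the share was 95.3% of 23750 placed mouse reads and 98.7% of 22537 placed rat reads. These were placed by a shorter stretch that ends at base 15, and not all of the 24016 mouse and 25951 rat mature reads could be placed. The 2 measures are therefore not fully alike.

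Lengths were narrow as well. miR-375-3p reads were mostly 22 nt, at 90.6% of mouse reads and 69.7% of rat reads. miR-141-3p reads were mostly 21 nt, at 95.4% and 86.0%, which is 1 base shorter than the RefSeq mature entry printed above. Over all mature miRNAs 22 nt was the main length too, at 59.7% and 37.7%.

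The share of short reads was higher in the rat for both miRNAs, beyond counting error for miR-141-3p. The share of 18 to 19 nt among miR-375-3p reads was 1.21% for the mouse (0.39 to 2.80) and 5.05% for the rat (2.45 to 9.09), and these intervals overlap. For miR-141-3p it was 1.37% (0.28 to 3.95) and 10.3% (5.24 to 17.7), and these do not. The 18 nt form of miR-141-3p alone had 1 mouse read and 10 rat reads. Over all mature miRNAs the shares were 2.17% and 2.91%. miR-200a-3p had 12 of 16 reads at 21 nt in the mouse, while in the rat 9 of 24 were of 21 nt and 7 of 24 of 18 to 19 nt.

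**Figure D3:**
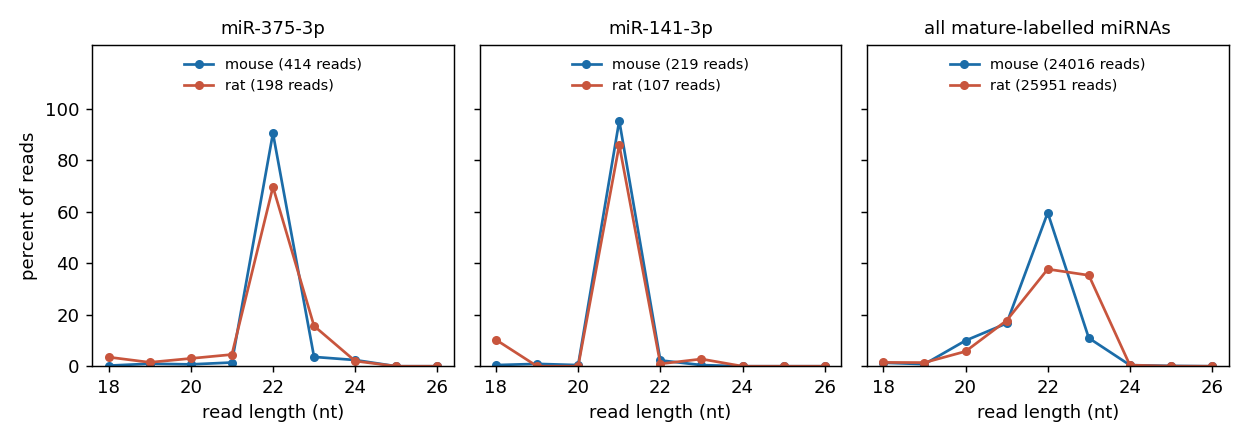
Percent of reads at each length from 18 to 26 nt for miR-375-3p, miR-141-3p and all mature-labelled miRNAs, in the mouse (date-stored counts included) and the rat. miR-375-3p peaks at 22 nt and miR-141-3p at 21 nt in both species, with lower peaks and more reads of 18 nt in the rat.

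The 3′ end of miR-375-3p took several forms. Of 403 mouse reads with its start, 247 (61.3%) ended at base 22 with the reference A, and 91 of 189 rat reads (48.1%) did. Another last base at 22 nt was seen in 115 mouse reads (28.5%, 24.2 to 33.2; 27.7% of listed reads alone) and 38 rat reads (20.1%, 14.6 to 26.5). Most of these were the change A22G, counted from 1 at the 5′ end, with 105 mouse reads and 34 rat reads. The change A22T had 9 and 3 reads.

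Reads with the reference end followed by 1 or 2 added bases made up 25 mouse reads (6.20%, 4.05 to 9.02) and 34 rat reads (18.0%, 12.8 to 24.2), and these intervals do not overlap. A single added A had 11 mouse and 17 rat reads, and a single added T had 4 and 12. Reads of 18 to 21 nt were 3.23% of mouse reads (1.73 to 5.45) and 12.7% of rat reads (8.31 to 18.3). The rat thus had a larger share of both longer and shorter forms, and the mouse a larger share of the reference form. By length alone, 6.04% of mouse and 17.7% of rat miR-375-3p reads had 23 nt or more. Over all mature-labelled miRNAs these shares were 11.5% and 35.8%. The larger share of long reads in the rat was therefore not particular to miR-375-3p.

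**Figure D4:**
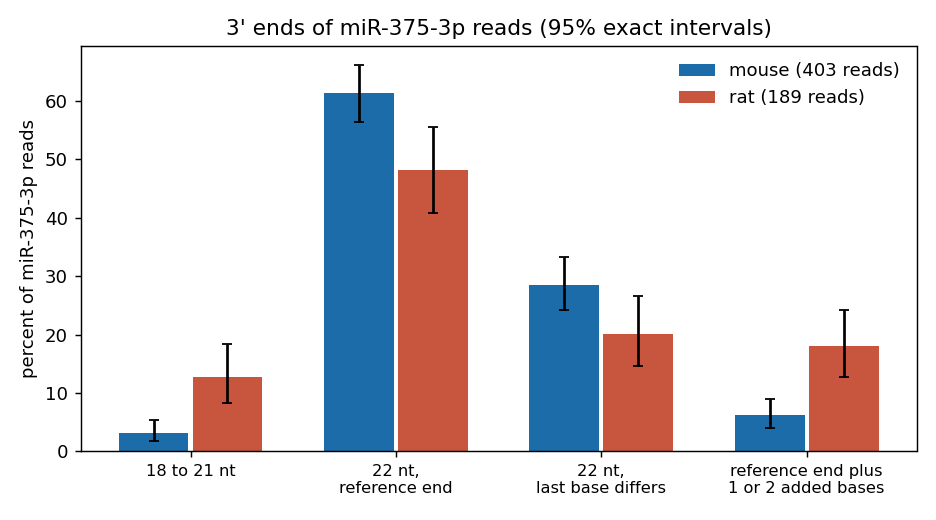
Percent of miR-375-3p reads in 4 classes of 3′ end, out of 403 mouse reads (date-stored counts included) and 189 rat reads with the shared start, with exact 95% intervals. Reads with another last base were 28.5% of mouse and 20.1% of rat reads, and reads with added bases 6.20% and 18.0%.

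Few other miRNAs had so many reads with a changed last base. This comparison was chosen after the values of miR-375-3p were seen. Among reads under the mature name, the last base was mismatched in 119 of 389 mouse reads of miR-375-3p (30.6%, 26.0 to 35.4) and 40 of 163 rat reads (24.5%, 18.1 to 31.9). Over all other mature-labelled reads the mismatched share was 3.01% for the mouse and 3.19% for the rat. By this share miR-375-3p ranked 3 of 32 mouse miRNAs with at least 50 reads, after miR-196b-5p and miR-6240, and 4 of 35 rat miRNAs, after miR-7667-5p, miR-15b-5p and miR-143-3p. miR-141-3p had 2 of 218 such reads in the mouse (0.917%) and 0 of 104 in the rat, where the limit of 3 reads allows up to 2.88%.

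A change from A to G was the form in question. Where the reference ended in A, it was read as G in 109 of 375 mouse reads of miR-375-3p (29.1%) and 35 of 138 rat reads (25.4%). In other miRNAs that end in A this was so in 63 of 857 mouse reads (7.35%), of which 52 were of miR-6240, and in 34 of 1332 rat reads (2.55%), of which 16 were of miR-15b-5p. Within those miRNAs the share was higher than in miR-375-3p. It was 52 of 52 reads (100%) for miR-6240 in the mouse and 16 of 36 (44.4%) for miR-15b-5p in the rat. The change was thus not particular to miR-375-3p. Without those miRNAs, left out after their values were seen, the share in the others was 1.37% for the mouse and 1.39% for the rat.

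Mismatches elsewhere in the 6 miRNAs were few. A deposited mismatch was present in 22.8% of the listed mouse reads of the set (19.6 to 26.3), or 24.8% with the date-stored counts (21.5 to 28.2), and in 26.3% of its rat reads (21.6 to 31.3). Over all listed reads under mature or GenBank microRNA labels it was present in 9.91% for the mouse and 22.2% for the rat. The set thus stood above that share in the mouse, while in the rat its interval included it. For miR-375-3p the share was 34% of listed mouse reads, 37.2% with the date-stored counts, and 41.9% of rat reads. For miR-141-3p it was 3.20% and 5.61%. Before the last 2 bases the set had mismatches in 2.85% of listed mouse reads (1.70 to 4.47) and 4.72% of rat reads (2.72 to 7.55). Over all mature-labelled reads the share there was 2.79% for the mouse and 17.0% for the rat.

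miR-141-3p and miR-200a-3p differ within their first 21 bases by A17C alone, the base by which their reads were told apart. The 21 nt form of miR-200a-3p had 11 mouse reads, all from a date-stored line, and 9 rat reads. All other single-base changes inside the 202 mouse and 87 rat reads of the main miR-141-3p form came to 5 reads over 4 changes in the mouse and 5 reads over 3 changes in the rat. The highest of them, A2C, had 2 and 3 reads. The miR-200a-3p form was thus seen more often than any other single-base change of miR-141-3p in both libraries. The 23 nt form of miR-200a-3p, which runs on along its own hairpin, had 2 mouse and 6 rat reads.

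The authors' labels held most of these reads under a mature name. The rest were under GenBank microRNA entries, with 19 of 631 reads in the mouse (3.01%, 1.82 to 4.66) and 46 of 339 in the rat (13.6%, 10.1 to 17.7). With the date-stored counts the mouse had 30 of 662 (4.53%, 3.08 to 6.41). Over all miRNAs, 23507 of 28318 listed mouse reads under either label had a mature name, as did 25951 of 28968 rat reads. The GenBank share over all miRNAs was thus larger in the mouse, the opposite direction to the set. No read with a member's start was under another kind of label. For miR-375-3p the GenBank entries held 14 listed mouse reads (3.55%) and 35 rat reads (17.7%), and all of them were 23 nt or longer. With the date-stored counts the mouse had 25 of 414 (6.04%). Counting by name alone left out these longer forms, and gave 293 reads for the 6 miRNAs in the rat in place of 339.

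Other cell type markers were counted by deposited name as shares of mature miRNA reads, where the 6 miRNAs stood at 2.60% for the mouse and 1.13% for the rat. Another 6 epithelial miRNAs held 0.685% of mouse and 0.447% of rat mature reads. The mouse had reads of all 6 and the rat of 5. miR-182-5p, a miRNA of sensory and other epithelia, led with 153 and 69 reads, while miR-203-3p and miR-205-5p, known from stratified epithelia, had 2 and 2 reads and 2 and 3 reads. miR-31-5p had 1 and 3 reads. miR-183-5p, from the same cluster as miR-182, had 2 reads by name in the mouse against 39 in the rat, but 35 and 33 when counted by its first 18 nt.

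Markers of stroma and smooth muscle held 10.3% of mouse reads (9.90 to 10.7) and 3.26% of rat reads (3.05 to 3.48), more than the epithelial miRNAs in both. Of 7 markers, the mouse had reads of 6 and the rat of 5. Nearly all of this was miR-143-3p, with 2392 mouse and 813 rat reads, whereas its cluster partner miR-145a-5p had 13 and 15. The muscle miRNA miR-1a-3p had 0 reads in both, and miR-133a-3p had 2 in each. miR-199a-3p, known from mesenchymal cells, had 7 and 15 reads. miR-143-3p was also higher in the mouse, as were miR-375-3p and miR-141-3p, with a log2 ratio of 1.70 by name. Its part in the difference was not tested.

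Markers of blood and immune cells held 0.179% of mouse reads (0.129 to 0.241) and 0.0116% of rat reads (0.00238 to 0.0338), with reads for 4 and 3 of 8 markers. miR-451a, a red blood cell miRNA, had 8 reads by name in the mouse against 0 in the rat, but 15 and 11 by its first 18 nt. miR-486a-5p had 32 and 0. The myeloid miR-223-3p and the pan-leukocyte miR-142a-3p had 0 reads in both libraries.

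Markers of the male germ line held 487 mouse reads (2.07%, 1.89 to 2.26) and 6838 rat reads (26.3%, 25.8 to 26.9). Whether these shares bear out the sperm label was not tested. Of 14 markers, the mouse had reads of 13 and the rat of 10. Most reads of this list were of miR-34c-5p, with 255 and 5785 reads, and miR-34b-3p had 68 and 563. In the mouse the 6 epithelial miRNAs thus had more reads than the germ line list, and in the rat they had fewer. The 6 markers of other organs (miR-122-5p, miR-124-3p, miR-9-5p, miR-216a-5p, miR-217-5p and miR-208a-3p) had 0 reads in both libraries, which allows up to 0.0128% of mouse and 0.0116% of rat mature reads at the limit of 3 reads.

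**Figure D5:**
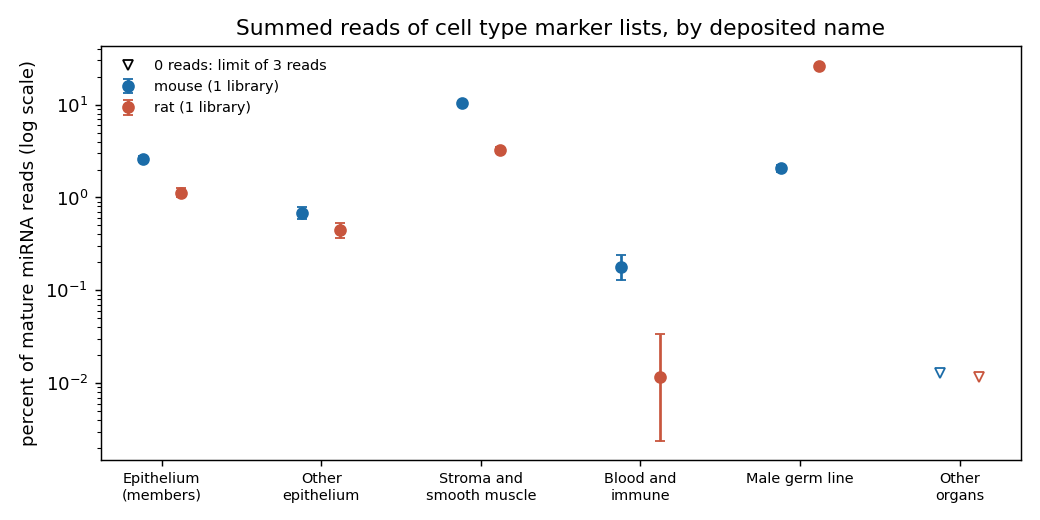
Summed share of mature miRNA reads (percent, log axis) for each marker list by deposited name, with exact 95% intervals; triangles mark the limit of 3 reads for lists with 0 reads. The epithelial miRNAs stand at 2.60% (mouse) and 1.13% (rat), below the stroma list in both species and above the germ line list only in the mouse.

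Fragments of messenger RNAs made by the epididymal epithelium were also present in the mouse library. Of 58192 mouse reads labelled as messenger RNA, 17614 carried a RefSeq label matched to a gene symbol, and the rest were not assigned to a gene here. Of 20 genes, listed with earlier results of these data known, 12 (60%) had matched reads. Over 21031 coding genes the share was 25.9%, a background chosen after the list's values were seen and not matched for expression. The 12 had 101 reads in all, with a median of 5.5 against 1 over all coding genes with reads. Given how the list and the background were chosen, these values are description only and test no enrichment. Crisp1, a secreted protein that coats sperm, had 24 reads. Adam7, a membrane protein passed to sperm, had 22, and Gpx5, a secreted glutathione peroxidase, had 20. The lipocalin Lcn5 had 10 reads, Lcn9 and Cuzd1 6 each, Spag11b 5, Rnase10 3, Cst8 2, and Lcn8, Rnase9 and Defb42 1 each. The other genes had 0 reads. Rat messenger RNA labels were not analysed here. The part of epithelial RNA in the levels of the 6 miRNAs was not tested.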

How the data were processed

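The authors deposited 1 table per library with the read counts of distinct sequences, their strand, the assigned miRBase, Rfam or GenBank entry and the mismatches (at most 2), per the file headers. Bowtie (0.12.7), mm9 and rn5 are named with no role, per the submitters' processing notes. The sources used here do not give the adapter trimming or the choice among several matches. Identifiers rank sequences by count, and 78279 mouse and 63001 rat identifiers are not listed. These would hold at least 54.1% of mouse and 13.7% of rat reads, so shares are of listed reads.

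Counts were used as deposited. RPM is per 1000000 mature-named reads, and log2 ratios used a pseudocount of 1 RPM. Shares of miRNA reads add, to the mature-named reads, reads of the 6 miRNAs under GenBank labels. Shares carry Clopper-Pearson intervals, counts Poisson intervals and ratios conditional binomial intervals (Python 3.11.15, numpy 2.4.6, scipy 1.17.1). They cover counting error only, since PCR copies are not independent molecules. With 1 library per species no test was run and no p-value computed. For the comparison between species, 23 rat names were replaced by the mouse name of the same start. The counting and intervals were tested on simulated data.

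The members, marker lists and comparisons were chosen with earlier results of these data known. The text names all 6 members with their main sequences, listed markers (those of at least 10 reads by rule, and others named after their values were seen), the 3 miRNAs nearest in level to miR-375-3p and miR-141-3p, their neighbours in rank, and listed epididymal transcripts with reads. The miRNAs with high shares of changed last bases were named after their values were seen.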

Additional observations from a re-analysis of the deposited data

Results flagged for a closer look

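Among the mouse lines whose count is stored as a date, 3 belonged to the 6 miRNAs and lay outside the main levels. The 23 nt form of miR-375-3p with an added A had 11 reads when restored, and the 22 nt form with A22T had 9. The 21 nt form of miR-200a-3p, without a mismatch, had 11 reads, against 5 listed mouse reads of that miRNA in all.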

How the results depend on the processing

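No paired analysis was possible because there was 1 library per species. For the summed share of miRNA reads, 0 mismatches gave 2.21% in the mouse. For the rat the name alone gave 1.13% and sequences of at least 10 reads 1.03%. All listed reads as the total gave 0.0913% in the mouse and 0.0161% in the rat, mature and precursor reads 2.05% and 0.548%, and distinct sequences 4.59% and 3.62%. The log2 ratio of the 6 together was 1.28 with sequences of at least 10 reads, 2.49 per listed read, 1.90 per mature and precursor read, 1.32 by the median ratio, 0.63 without the germ line list and 2.52 with restored counts per listed read. That last setting reversed miR-200a-3p, from -2.12 to 0.91. The share of miR-375-3p reads with another last base was 15.4% of distinct mouse sequences, and it is 0 by construction without mismatches in both species. Distinct sequences gave mismatch shares of 57.8% in the mouse and 48.6% in the rat. Per listed read, the member, other epithelial, stroma, blood and germ line lists were 0.0885%, 0.0233%, 0.350%, 0.00607% and 0.0704% in the mouse, and 0.0139%, 0.00552%, 0.0402%, 0.000143% and 0.325% in the rat. By the first 18 nt, the last 4 lists were 0.868%, 12.7%, 0.408% and 2.40% in the mouse, and the blood and germ line lists 0.0539% and 27% in the rat. Except where construction shows it, the cause was not tested. The restored counts for ends, mismatches and labels, the total without the germ line list and the combined setting were chosen after seeing the data. Of the other values, 45 summary values and 154 values of single miRNAs moved by less than their interval, and 27 values of single miRNAs moved by more with no change of sign. Depth limits miR-200b-3p, miR-200c-3p and miR-429-3p, with 2 to 6 reads each.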

Other observations

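A few single-base changes inside the reads were seen more than once, and were named after their values were seen. In the rat, G17C in the 22 nt form of miR-375-3p had 6 reads, against 91 of the unchanged form. In the mouse, T2G in that form had 3 reads against 247. Reads of the same miRNAs that the rule for members did not reach, because they began 1 nt away or had a changed base near the start, came to 4 per library, and all were under precursor labels.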
